A study of Rattus norvegicus with 13 samples.

Results

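The respiratory chain and ATP synthase genes of the rat nucleus were followed in mammary carcinomas of irradiated rats and in normal mammary tissue. Members were the genes whose rat symbol begins with Nduf, Uqcr, Atp5 or Cox4 to Cox8, together with Sdha, Sdhb, Sdhc, Sdhd, Cyc1 and Cycs. The arrays held 79 such genes on 92 probes, of 41012 non-control probes in all. They were 30 genes of complex I, 5 complex I assembly factors, 4 genes of complex II, 8 of complex III, 16 of complex IV, 15 of complex V and the cytochrome c gene Cycs. Of the 79, 77 passed the filter on dim probes (a probe had to be well above background on at least 3 of the 13 arrays), among 25344 genes that passed it in all. Only 10515 of these 25344 had a matched rat symbol, and the rest were accessions without one, each counted as a gene. Shares and medians of all genes below are taken over both kinds. Uqcrq, a small subunit of complex III, was well above background on 2 arrays, and Cox8c, a testis isoform of complex IV, on 0, so neither was tested. Cyc1 and the subunits encoded in mitochondrial DNA had no matched probe and were not analysed here.

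The IR-3W carcinomas (4 samples) came from female Sprague-Dawley rats given 2 Gy of whole-body caesium gamma-rays at 0.6 Gy/min when 3 weeks old, and the IR-7W carcinomas (6 samples) from rats given the same dose when 7 weeks old. Both groups ate a purified diet with 23.5% corn oil from 9 weeks of age, and palpable tumors were taken at 50 weeks. The normal mammary tissue (3 samples) came from non-irradiated rats, and the labels give their age both as 7 weeks and as matched to the tumors, so age, diet and irradiation all may separate them from the carcinomas. The labels do not say that the samples of a group came from separate rats, so a p-value here covers only how much these samples vary.

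Oxidative phosphorylation moves electrons from NADH through complex I, or from succinate through complex II, to ubiquinone, then through complex III and cytochrome c to complex IV, which reduces oxygen to water. Complexes I, III and IV pump protons across the inner mitochondrial membrane, and complex V lets them back to make ATP. Complex II is built only from nuclear genes and also works in the citric acid cycle, while complexes I, III, IV and V need subunits from mitochondrial DNA too. Several complex IV subunits exist as isoforms with tissue preferences, such as the heart and muscle forms Cox6a2 and Cox8b. Mammary tissue of a virgin rat is largely fat, with epithelial ducts inside it, and a carcinoma is mostly epithelium and stroma.

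All values below are levels on the log2 scale: Agilent's processed signal of the gene's brightest probe minus the 75th percentile of its array, so that 0 is the level at that percentile. Levels of different probes are not compared with each other. Differences are log2 differences with their standard error (SE), fitted with limma over all 13 arrays, and a gene passed when its Benjamini-Hochberg adjusted p over all genes was under 0.05. In bulk tissue, fewer cells of a type and less RNA per cell cannot be told apart.

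The normal arrays differed from the carcinoma arrays as a whole. Their 75th percentile signal was 276 to 1242 on the carcinoma arrays and 82.3 to 179 on the normal arrays, 58.0% to 71.0% of carcinoma probes and 48.7% to 54.2% of normal probes were well above background, and the slope of log signal on log spike-in amount was 0.924 to 0.987 in carcinomas and 0.759 to 0.845 in normal tissue. The 3 normal samples were on a slide of their own and differed from the carcinomas in scanner or year of scanning. Slide, scan and group therefore cannot be told apart in any comparison with normal tissue. A carcinoma, IR-3W 3, stood apart within its group in both signal and markers. Its 75th percentile was 276, against 572 to 1242 in the other carcinomas, and 58.0% of its probes were well above background, against 61.4% to 71.0%. Its mean level of 13 adipocyte markers was 0.49, against -2.10 to -1.93 in the other IR-3W carcinomas and -2.41 to -1.08 in the IR-7W carcinomas, and 2.59 to 2.80 in normal tissue. IR-3W 1 stood apart in skeletal muscle markers, at a mean of -0.94, against -4.15 to -3.84 in the other IR-3W carcinomas. Results for the IR-3W group are given with and without IR-3W 3 where it moved them. The 13 epithelial markers averaged 2.57 to 3.60 in IR-3W carcinomas, 3.52 to 3.99 in IR-7W carcinomas and 2.64 to 2.98 in normal tissue, so epithelial genes were measured in every sample.

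The members' median sat slightly lower in the carcinomas relative to all genes that passed the filter, under each scaling run but not under another background method, normexp. In IR-3W carcinomas 5 of 77 members rose and 6 fell, against 9.25% of all genes higher and 5.35% lower. In IR-7W carcinomas 3 rose and 16 fell, against 12% of all genes higher and 8.85% lower. Cox7c is counted among the rises in both, though its probe passed the filter only through the carcinoma arrays. The remaining members, 66 in IR-3W and 58 in IR-7W, did not pass. With arrays weighted by quality, 6 rose and 31 fell in IR-3W and 6 rose and 38 fell in IR-7W, while the count over all genes grew to 9683 and 10642. The median difference of the members was -0.23 in IR-3W and -0.42 in IR-7W carcinomas, beside -0.01 and -0.02 over all genes. With no filter on dim probes, the members' median minus that of all genes was 0.16 in IR-3W and -0.0057 in IR-7W. With the background estimated by normexp instead of Agilent's method, the members stood above the median of all genes, since their medians became -0.16 in IR-3W and -0.10 in IR-7W while the medians of all genes became -0.23 and -0.56. At an unadjusted limma p under 0.05 the count was 25 members in IR-3W, against 29.6% of all genes, and 29 in IR-7W, against 34.7%. Levels of the groups did not overlap for 6 higher and 16 lower members in IR-3W, against 13.4% and 11.4% of all genes, and for 4 higher and 30 lower members in IR-7W, against 14.9% and 14%. Both comparisons use the same 3 normal samples, so their values are given side by side and not as independent evidence of each other.

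**Figure D1:**
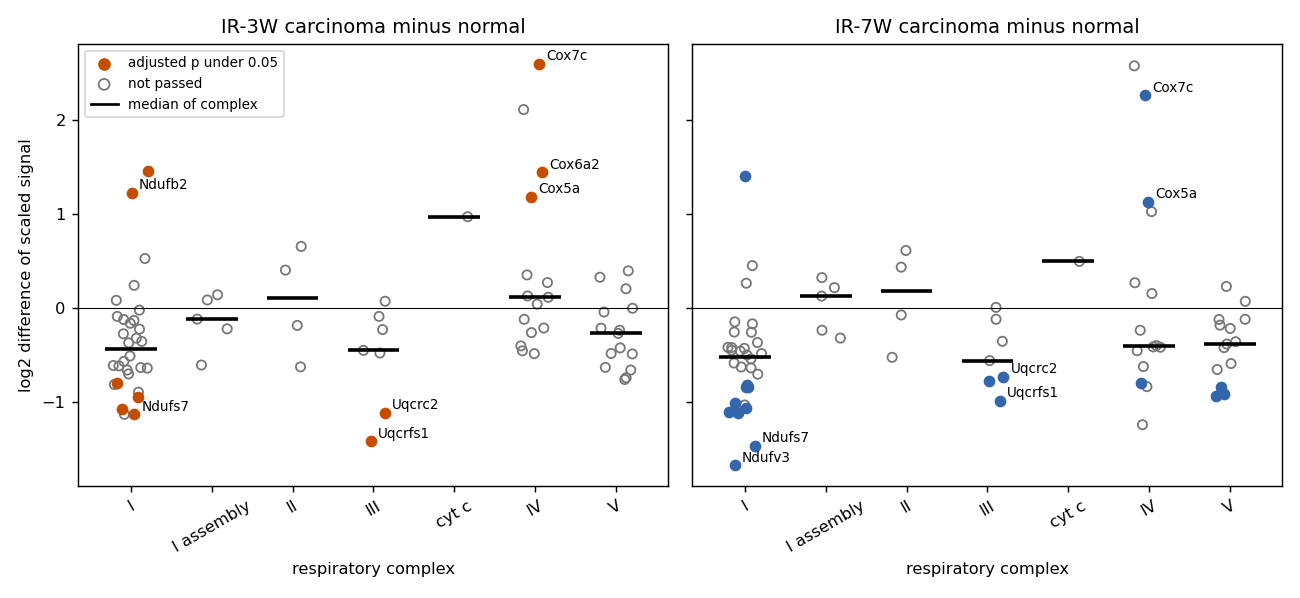
Log2 difference of each of the 77 members between IR-3W carcinomas (left) or IR-7W carcinomas (right) and normal mammary tissue, by respiratory complex. Filled points passed at an adjusted p under 0.05, open points did not, and bars are the median of each complex: complexes I, III and V have medians below 0 in both panels, though above the median of all genes for IR-7W under the normexp background, while complex II and cytochrome c lie above 0.

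By complex, complexes I and III held most of the members that fell. In complex I, 2 of 30 members rose and 4 fell in IR-3W, and 1 rose and 9 fell in IR-7W, with medians of -0.44 and -0.52. In complex III, 2 of 7 fell in IR-3W and 3 in IR-7W, with medians of -0.45 and -0.56. In complex IV, 3 of 15 rose and 0 fell in IR-3W, and 2 rose and 1 fell in IR-7W, with medians of 0.11 and -0.40. The rises in both include Cox7c, whose probe passed the filter only through the carcinoma arrays. In complex V, 0 of 15 passed in IR-3W, although 4 had an unadjusted limma p under 0.05, and 3 fell in IR-7W, with medians of -0.27 and -0.38. In complex II, 0 of 4 passed in either comparison, where 1 in each had an unadjusted limma p under 0.05, and the medians were 0.11 and 0.18. The 5 assembly factors gave 0 passes and 0 unadjusted limma p-values under 0.05, with medians of -0.12 in IR-3W and 0.13 in IR-7W. Relative to all genes, the IR-7W medians under normexp were 0.31 for complex I, 0.43 for complex III, 0.48 for complex IV and 0.66 for complex V, and the IR-3W medians were -0.04, -0.02, 0.23 and 0.07. These directions turn or vanish with that background, except that of complex IV in IR-3W, which was 0.12 relative to all genes in the main run. Under quantile, cyclic loess and the other percentile scaling (the 75th percentile over probes detected on all arrays), complexes I, III and V kept medians below that of all genes and complex II above it.

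Before single members are described, the promoters of a few are shown, since the nuclear genes of the chain share regulators. Nuclear respiratory factor 1 (NRF1), the ETS factor GABP (also called NRF2) and the estrogen-related receptors (ERR) are known to act on many of them. The table of RefSeq promoters, on the rat build GRCr8, held 70 of the 79 members, and each window is 300 bases around the annotated start. Searched on both strands, the NRF1 letters GCGCATGC were in 12 of the 70 (17.1%), against 2.47% of all 33469 promoters. The GABP letters CCGGAAGT were in 7 (10%), against 3.81% of all promoters. The ERR letters TCAAGGTCA were in 1 (1.43%), against 0.433%. The median GC content was 56.7% in member promoters and 51.7% in all promoters, and the part of this in the shares was not tested. No motif overlaps another in its letters, and a match is a description of the letters only. The 4 windows below are Uqcrfs1, which fell in both comparisons, Cox5a, which rose in both, and Cycs and Sdhd, which did not pass, with any of the 3 motifs in capitals.
Uqcrfs1: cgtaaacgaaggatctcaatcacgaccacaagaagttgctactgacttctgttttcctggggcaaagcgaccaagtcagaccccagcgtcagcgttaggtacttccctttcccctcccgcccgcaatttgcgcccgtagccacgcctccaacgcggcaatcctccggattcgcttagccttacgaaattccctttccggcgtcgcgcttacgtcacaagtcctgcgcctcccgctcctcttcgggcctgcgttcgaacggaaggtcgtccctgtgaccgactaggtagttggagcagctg
Cox5a: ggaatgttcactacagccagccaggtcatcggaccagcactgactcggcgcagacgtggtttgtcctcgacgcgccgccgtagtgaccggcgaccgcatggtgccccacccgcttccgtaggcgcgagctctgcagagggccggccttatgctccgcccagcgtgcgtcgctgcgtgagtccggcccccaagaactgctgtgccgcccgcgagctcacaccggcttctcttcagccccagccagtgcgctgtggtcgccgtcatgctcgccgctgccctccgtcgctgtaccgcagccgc
Cycs: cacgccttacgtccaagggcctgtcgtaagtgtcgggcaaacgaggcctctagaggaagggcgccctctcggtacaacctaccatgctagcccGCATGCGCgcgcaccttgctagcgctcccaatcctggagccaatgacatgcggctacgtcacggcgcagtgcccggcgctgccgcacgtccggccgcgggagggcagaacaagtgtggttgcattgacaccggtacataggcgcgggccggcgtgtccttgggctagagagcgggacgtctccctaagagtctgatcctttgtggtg
Sdhd: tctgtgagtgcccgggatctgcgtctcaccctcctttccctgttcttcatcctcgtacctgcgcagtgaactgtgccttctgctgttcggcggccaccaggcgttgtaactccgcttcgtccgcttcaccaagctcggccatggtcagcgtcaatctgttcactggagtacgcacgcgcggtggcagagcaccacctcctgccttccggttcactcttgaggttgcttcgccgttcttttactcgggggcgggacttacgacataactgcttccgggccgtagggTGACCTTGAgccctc

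These windows lie on GRCr8 at chr17:34186352-34186651 on the plus strand for Uqcrfs1, chr8:66818034-66818333 on the plus strand for Cox5a, chr4:80984718-80985017 on the minus strand for Cycs and chr8:59850592-59850891 on the minus strand for Sdhd. The capitals mark the reverse complement of the NRF1 letters in Cycs and of the ERR letters in Sdhd. Of the 18 tested members with any of the 3 motifs, 0 passed in either comparison with normal tissue, with median differences of -0.23 in IR-3W and -0.37 in IR-7W. Of the 50 tested members whose window held none, 4 rose and 4 fell in IR-3W, and 2 rose and 13 fell in IR-7W, with medians of -0.26 and -0.44. Whether the share that passed differs between these sets was not tested.

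Complex I takes electrons from NADH. Ndufs7, the core subunit that holds the last iron-sulfur cluster before ubiquinone, had levels of 4.74, 4.31, 5.97 and 4.38 in IR-3W carcinomas 1 to 4, a lowest, median and highest level of 4.32, 4.44 and 4.87 in IR-7W carcinomas, and 5.98, 6.06 and 5.89 in normal tissue. All IR-7W carcinomas lay below all normal samples, and so did the IR-3W carcinomas except IR-3W 3, which lay among the normal samples. Ndufs7 fell by 1.13 ± 0.35 (SE, limma adjusted p = 0.0473) in IR-3W and by 1.46 ± 0.32 (adjusted p = 0.00715) in IR-7W. Without IR-3W 3 the IR-3W difference was -1.50 (limma adjusted p = 0.000835), while leaving out any other sample of those 2 groups ended the IR-3W call (adjusted p = 0.0855 to 0.139). So did normexp (limma adjusted p = 0.113), cyclic loess (0.0651), the other percentile scaling (0.0607) and fitting the 2 groups alone (0.167).

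Ndufv3, an accessory subunit of the NADH-oxidizing module, had levels of 2.14, 3.14, 5.11 and 2.74 in IR-3W carcinomas, 2.19, 2.42 and 2.93 (lowest, median, highest) in IR-7W carcinomas, and 4.30, 4.37 and 3.86 in normal tissue. IR-3W 3 was again the exception, here above every normal sample. The gene fell by 1.67 ± 0.49 in IR-7W (limma adjusted p = 0.0292). In IR-3W the difference of -0.89 ± 0.53 did not pass (adjusted p = 0.285), and without IR-3W 3 it was -1.50 (adjusted p = 0.00469). The IR-7W call ended without any 1 of the normal samples or without IR-7W 4 (limma adjusted p = 0.0515 to 0.105).

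Ndufa10l1, a gene named for its likeness to the accessory subunit gene Ndufa10, had levels of 3.45, 3.42, 3.90 and 3.27 in IR-3W carcinomas, 3.40, 3.56 and 3.85 in the 5 IR-7W carcinomas with a usable spot, and 4.32, 4.63 and 4.81 in normal tissue. Neither carcinoma group overlapped the normal samples. The differences were -1.08 ± 0.23 in IR-3W (limma adjusted p = 0.00907) and -1.01 ± 0.22 in IR-7W (adjusted p = 0.00777). A probe may also bind RNA of a near-identical copy. The other 2 probes of the gene differed by -0.60 and -0.96 in IR-3W and by -0.52 and -0.77 in IR-7W. A filter that asks for signal on all arrays reads the first of these instead, and neither call then passed (limma adjusted p = 0.0817 in IR-3W and 0.0836 in IR-7W). With the 2 groups alone the IR-3W call also ended (limma adjusted p = 0.0701).

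The other complex I members that fell were Ndufa2 and Ndufb9, accessory subunits that fell in both comparisons, by 0.79 and 0.94 in IR-3W and by 1.11 and 1.06 in IR-7W, and 4 that passed in IR-7W. These 4, named here after their values were seen, were the accessory subunits Ndufb3 (-1.10), Ndufb6 (-0.84) and Ndufb11 (-0.81) and the core subunit Ndufv2 (-0.84), a carrier of an iron-sulfur cluster in the NADH-oxidizing module. Their IR-3W differences of -0.70, -0.64, -0.66 and -0.81 did not pass, and none of the 4 passed between the carcinoma groups. Leaving out single samples ended the IR-3W calls of Ndufa2 (normal 1, 2 or 3, IR-3W 1 or 4) and Ndufb9 (normal 1, 2 or 3, IR-3W 2 or 4), and the IR-7W calls of Ndufb3 (normal 3), Ndufb6 (normal 1), Ndufb11 (normal 1, 2 or 3) and Ndufv2 (normal 1, 2 or 3, IR-7W 1, 2, 3 or 6), at limma adjusted p-values of at most 0.123. The normexp background ended the IR-3W calls of Ndufa2 (limma adjusted p = 0.135) and Ndufb9 (0.154) and the IR-7W calls of Ndufb3 (0.149), Ndufb6 (0.308), Ndufb11 (0.119) and Ndufv2 (0.125). Quantile, cyclic loess and the other percentile scaling ended Ndufa2 in IR-3W (0.0544, 0.0885 and 0.0599) and Ndufv2 in IR-7W (0.0527, 0.0787 and 0.0627), and fitting the 2 groups alone ended Ndufa2 (0.163) and Ndufb9 (0.117) in IR-3W.

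Among the complex I members that rose, Ndufb2, an accessory subunit of the membrane arm, had levels of 4.88, 4.92, 5.62 and 4.23 in IR-3W carcinomas, 3.75, 4.19 and 4.56 in IR-7W carcinomas, and 3.68, 3.54 and 3.85 in normal tissue. The IR-3W carcinomas all exceeded the normal samples, and the IR-7W carcinomas overlapped them. It rose by 1.22 ± 0.31 in IR-3W (limma adjusted p = 0.0199) and did not pass in IR-7W, where the difference was 0.45 ± 0.29 (adjusted p = 0.294). The IR-3W call ended without normal 1 (limma adjusted p = 0.062) or normal 2 (0.0805), and with the 2 groups alone (0.0902).

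**Figure D2:**
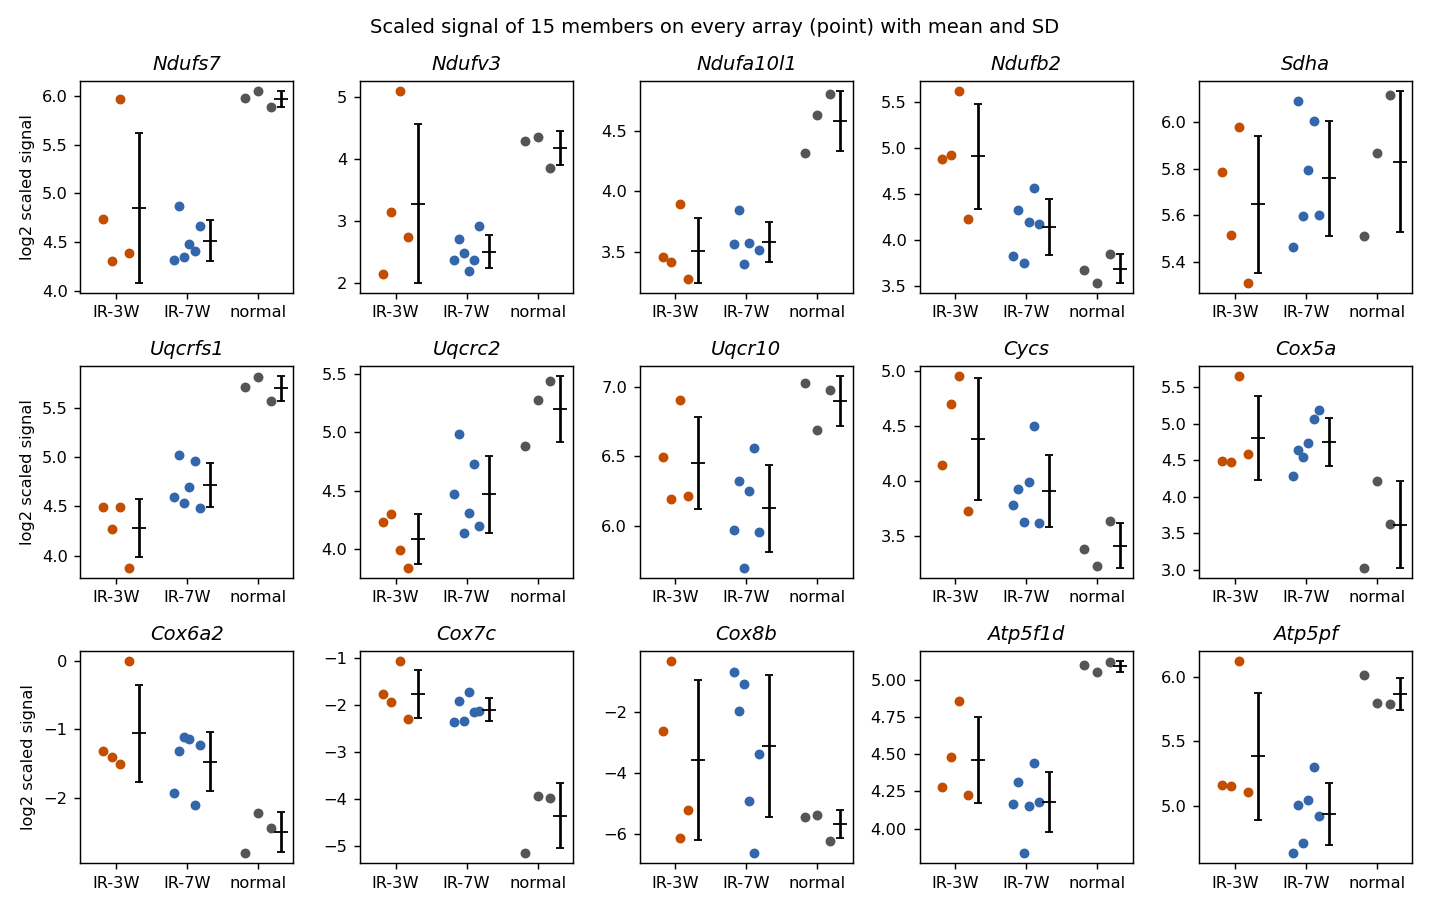
Log2 scaled signal of 15 members on each array, with the IR-3W group on the left of each panel, the IR-7W group in the middle and normal tissue on the right; points are samples, bars the mean and SD, and each panel has its own axis. IR-3W 3 is the highest IR-3W point for Ndufs7 (5.97), Ndufv3 (5.11), Cox5a (5.66) and Atp5pf (6.12), whereas Uqcrfs1 has no overlap between carcinomas and normal tissue.

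Complex II, succinate dehydrogenase, showed no member past the threshold. Sdha, its flavoprotein, had levels of 5.79, 5.52, 5.98 and 5.31 in IR-3W carcinomas, 5.46, 5.70 and 6.09 in IR-7W carcinomas, and 5.51, 5.87 and 6.12 in normal tissue, so that the 3 groups covered one another. Its difference was -0.18 (95% interval -0.73 to 0.36) in IR-3W and -0.07 (-0.58 to 0.43) in IR-7W, which leaves room for changes of up to these bounds. Sdhb, the iron-sulfur subunit, differed by 0.40 ± 0.24 in IR-3W and 0.43 ± 0.22 in IR-7W, and Sdhc, a membrane anchor, by 0.65 ± 0.29 and 0.61 ± 0.27. Sdhd, the other anchor, differed by -0.62 ± 0.30 in IR-3W and -0.52 ± 0.28 in IR-7W. The limma adjusted p-values of these 3 lay between 0.122 and 0.279.

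Complex III hands electrons from ubiquinol to cytochrome c. Uqcrfs1, the Rieske iron-sulfur protein that makes the transfer, had levels of 4.50, 4.27, 4.49 and 3.87 in IR-3W carcinomas, 4.49, 4.65 and 5.02 in IR-7W carcinomas, and 5.71, 5.81 and 5.56 in normal tissue. The normal samples lay above all 10 carcinomas. IR-3W 3 was not apart from its group here. Uqcrfs1 fell by 1.41 ± 0.23 in IR-3W (limma adjusted p = 0.00148) and by 0.98 ± 0.21 in IR-7W (adjusted p = 0.00656), that is 2.66-fold and 1.97-fold lower than in normal tissue. The IR-3W call was the only member call kept under every alternative run for that comparison.

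Uqcrc2, a core protein that holds the complex together, had levels of 4.23, 4.30, 3.99 and 3.84 in IR-3W carcinomas, 4.14, 4.39 and 4.98 in IR-7W carcinomas, and 4.89, 5.28 and 5.44 in normal tissue. The IR-3W carcinomas all lay below the normal samples, while the highest IR-7W carcinoma overlapped them. It fell by 1.11 ± 0.26 in IR-3W (limma adjusted p = 0.0123) and by 0.73 ± 0.24 in IR-7W (adjusted p = 0.0468). The normexp background ended both calls, at adjusted p = 0.121 for IR-3W and 0.514 for IR-7W. So did leaving out normal 2 or 3 in IR-3W (limma adjusted p = 0.0535 and 0.0501), and normal 1, 2 or 3 or IR-7W 1, 3, 4 or 6 in IR-7W (0.0543 to 0.16). The IR-7W call also ended under quantile scaling (limma adjusted p = 0.0925), cyclic loess (0.071) and the other percentile scaling (0.0794), and fitting the 2 groups alone ended both calls (0.0606 in IR-3W and 0.0518 in IR-7W).

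Uqcr10, a small subunit, had levels of 6.49, 6.19, 6.91 and 6.21 in IR-3W carcinomas, 5.69, 6.11 and 6.56 in IR-7W carcinomas, and 7.03, 6.69 and 6.98 in normal tissue. It fell in IR-7W by 0.77 ± 0.24 (limma adjusted p = 0.0391) and had a difference of -0.45 ± 0.26 in IR-3W (adjusted p = 0.279). The IR-7W call ended under normexp (limma adjusted p = 0.113), cyclic loess (0.067) and the other percentile scaling (0.0756), and without normal 1, 2 or 3 or IR-7W 1, 3, 4 or 6 (0.0542 to 0.133). Uqcr11, another small subunit, differed by 0.07 ± 0.22 in IR-3W and by -0.35 ± 0.21 in IR-7W and did not pass. The 3 probes of Uqcrb, a ubiquinone-binding subunit, gave -0.09, -0.53 and 0.24 in IR-3W and -0.56, -0.86 and -0.05 in IR-7W.

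Cycs, which shuttles electrons from complex III to complex IV and also triggers apoptosis when released, had levels of 4.15, 4.70, 4.96 and 3.73 in IR-3W carcinomas, 3.62, 3.86 and 4.50 in IR-7W carcinomas, and 3.38, 3.23 and 3.63 in normal tissue. All IR-3W carcinomas exceeded the normal samples, and the IR-7W carcinomas overlapped them at the lower end. Its differences of 0.97 ± 0.31 in IR-3W (limma adjusted p = 0.0565) and 0.50 ± 0.29 in IR-7W (adjusted p = 0.251) did not pass. The other 2 Cycs probes gave 0.21 and 0.14 in IR-3W and -0.16 and -0.20 in IR-7W.

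In complex IV, Cox5a was called higher in both comparisons, Cox6a2 higher in IR-3W and Cox6a1 lower in IR-7W. Cox7c was also called higher in both, but its probe passed the filter only through the carcinoma arrays. Each of these calls was lost under some alternatives. In IR-7W, 9 of the 15 complex IV members had a difference below 0, with a median of -0.40. Cox5a, a nuclear subunit on the matrix side, had levels of 4.49, 4.47, 5.66 and 4.59 in IR-3W carcinomas, 4.29, 4.69 and 5.18 in IR-7W carcinomas, and 3.02, 4.21 and 3.62 in normal tissue. The groups did not overlap, although the highest normal sample came close to the lowest carcinoma. Cox5a rose by 1.18 ± 0.36 in IR-3W (limma adjusted p = 0.045) and by 1.13 ± 0.33 in IR-7W (adjusted p = 0.0309). Without IR-3W 3 the IR-3W difference was 0.90 (adjusted p = 0.0666), and without normal 1 the calls ended in both, at 0.88 (adjusted p = 0.182) in IR-3W and 0.83 (adjusted p = 0.16) in IR-7W. They also ended without normal 3 in both, without IR-3W 1 or 4 in IR-3W, and without IR-7W 5 or 6 in IR-7W. The IR-3W call ended too under normexp (limma adjusted p = 0.0536), with array weights (0.67, adjusted p = 0.0847) and with the 2 groups alone (adjusted p = 0.142).

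Cox5b, the neighbour of Cox5a in the complex, was measured by 2 probes that disagreed. The brighter probe gave -0.48 in IR-3W and -0.62 in IR-7W, neither of which passed, and the other gave 1.18 and 1.07.

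Cox6a occurs as the widespread isoform Cox6a1 and the heart and muscle isoform Cox6a2. Cox6a1 had levels of 7.30, 7.15, 7.82 and 7.05 in IR-3W carcinomas, 6.61, 7.05 and 7.34 in IR-7W carcinomas, and 7.86, 7.65 and 7.83 in normal tissue. It fell by 0.79 ± 0.24 in IR-7W (limma adjusted p = 0.0315) and had a difference of -0.45 ± 0.25 in IR-3W (adjusted p = 0.257). In IR-7W every carcinoma lay below every normal sample. The IR-7W call ended under normexp (limma adjusted p = 0.203) and the other percentile scaling (0.0583), and without normal 1, 2 or 3 or IR-7W 1, 3 or 6 (0.0527 to 0.106).

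Cox6a2 had levels of -1.31, -1.40, -1.51 and -0.0026 in IR-3W carcinomas, -2.10, -1.28 and -1.11 in IR-7W carcinomas, and -2.81, -2.23 and -2.45 in normal tissue. All carcinomas exceeded all normal samples, and IR-3W 4 was far above the rest of its group. The gene rose by 1.44 ± 0.38 in IR-3W (limma adjusted p = 0.0245) and had a difference of 1.02 ± 0.35 in IR-7W (adjusted p = 0.0577). With the normexp background the values shrank to 0.57 (adjusted p = 0.328) and 0.06 (adjusted p = 0.852). The IR-3W call also ended without any 1 of the normal samples (limma adjusted p = 0.0518 to 0.0976) and with the 2 groups alone (0.0863).

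Cox7c, a small subunit of the membrane part, was well above background on all 10 carcinoma arrays and on 0 of 3 normal arrays. Its levels were -1.78, -1.95, -1.07 and -2.30 in IR-3W carcinomas, -2.36, -2.15 and -1.73 in IR-7W carcinomas, and -5.16, -3.95 and -3.99 in normal tissue. A bound was set by using, for each normal array, the higher of the probe's own signal and the lowest signal well above background. With Agilent's background and that bound, Cox7c was 5.27-fold higher in IR-3W and 4.18-fold higher in IR-7W. Where the probe's own signal was the higher, it entered as measured, so these folds are not firm lower limits. The limma differences, fitted without the bound, were 2.59 in IR-3W (adjusted p = 0.000405) and 2.26 in IR-7W (adjusted p = 0.000435). The probe passed the filter only through the carcinoma arrays, so these p-values are no support for a rise. With the normexp background the difference was 0.33 in IR-3W (adjusted p = 0.581) and reversed to -0.30 in IR-7W (adjusted p = 0.307), so the direction of this dim probe depends on how background is handled.

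Cox8b, the heart and muscle isoform of subunit 8 in rodents, exceeded background clearly on 2 of the 4 IR-3W arrays, on 5 of the 6 IR-7W arrays and on 0 of the 3 normal arrays. Its levels were -2.61, -0.32, -6.15 and -5.22 in IR-3W carcinomas, -6.64, -2.67 and -0.69 in IR-7W carcinomas, and -5.43, -5.38 and -6.22 in normal tissue. Both carcinoma groups spread over more than 5 log2 units and reached down to the normal samples. The differences of 2.11 in IR-3W and 2.57 in IR-7W did not pass (limma adjusted p = 0.379 and 0.211), and under normexp they were -0.16 and -0.29. The mean of 18 skeletal muscle markers was -0.94 in IR-3W 1, -1.92 in IR-7W 1 and -0.77 in IR-7W 6, where Cox8b was at -2.61, -0.69 and -3.39. It was -4.78 to -3.84 in the other carcinomas, where Cox8b reached -0.32 in IR-3W 2 and -1.07 in IR-7W 3, and -4.11 to -2.60 in normal tissue. The part of muscle in the Cox8b levels was not tested. Of 5 brown fat markers tested, 0 passed in limma in either comparison. In each, 2 had an unadjusted limma p under 0.05, against 29.6% of all genes in IR-3W and 34.7% in IR-7W. On the 3 normal arrays Ucp1, Dio2 and Otop1 were not well above background, whereas Cidea and Ebf2 were on all 3, and Otop1 was on all 10 carcinoma arrays.

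The remaining named complex IV members did not pass in either comparison with normal tissue. Cox4i1, the widespread form of subunit 4, differed by -0.40 ± 0.23 in IR-3W and -0.42 ± 0.21 in IR-7W. Cox4i2, the lung isoform known to respond to low oxygen, had levels of 0.46, 1.04, 1.44 and 0.86 in IR-3W carcinomas, 0.24, 0.45 and 0.67 in IR-7W carcinomas, and 0.61, 0.98 and 0.45 in normal tissue, so the groups overlapped. Cox6b2, a testis isoform, had differences of 0.13 ± 0.68 in IR-3W and -1.24 ± 0.63 in IR-7W, with IR-7W levels from -5.33 to -2.54. Ndufa4, first assigned to complex I and now to complex IV, differed by -0.21 ± 0.31 in IR-3W and -0.45 ± 0.29 in IR-7W. Cox7a2l, a factor that joins complexes III and IV into supercomplexes, differed by 0.04 ± 0.27 in IR-3W and 0.27 ± 0.25 in IR-7W. Cox7a2, Cox7b and Cox8a lay between -0.26 and 0.35 in IR-3W and between -0.83 and 0.15 in IR-7W.

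Complex V makes ATP. Atp5f1d, the delta subunit of the turning central stalk, had levels of 4.28, 4.48, 4.85 and 4.22 in IR-3W carcinomas, 3.83, 4.17 and 4.44 in IR-7W carcinomas, and 5.10, 5.05 and 5.12 in normal tissue. The normal samples lay close together and above all carcinomas. It fell by 0.91 ± 0.20 in IR-7W (limma adjusted p = 0.00796) and had a difference of -0.63 ± 0.22 in IR-3W (adjusted p = 0.0757), which was -0.76 (adjusted p = 0.0223) without IR-3W 3. Under normexp the IR-7W value was -0.51 (limma adjusted p = 0.0508).

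Atp5pf, coupling factor 6 of the outer stalk, had levels of 5.16, 5.15, 6.12 and 5.10 in IR-3W carcinomas, 4.63, 4.96 and 5.30 in IR-7W carcinomas, and 6.01, 5.80 and 5.79 in normal tissue. IR-3W 3 alone among the carcinomas lay above the normal samples. It fell by 0.93 ± 0.26 in IR-7W (limma adjusted p = 0.0223). In IR-3W the difference was -0.48 ± 0.28 (adjusted p = 0.27), and without IR-3W 3 it was -0.73 (adjusted p = 0.034). The third member that fell in IR-7W was Atp5mc1, a gene for the membrane ring of c subunits, with a difference of -0.83. Normexp ended both IR-7W calls, at limma adjusted p = 0.34 for Atp5pf and 0.404 for Atp5mc1, and so did leaving out any 1 of the normal samples, and for Atp5mc1 also IR-7W 1, 2, 3, 4 or 6 (up to 0.0903 for Atp5pf and 0.135 for Atp5mc1). Quantile, cyclic loess and the other percentile scaling also ended the Atp5mc1 call (limma adjusted p = 0.0639, 0.0928 and 0.0805).

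Atp5f1a, the alpha subunit of the catalytic head, had levels of 4.10, 5.12, 3.95 and 4.19 in IR-3W carcinomas, 4.67, 4.83 and 5.24 in IR-7W carcinomas, and 5.16, 5.22 and 4.90 in normal tissue. IR-3W 2 lay with the normal samples and the other 3 IR-3W carcinomas below every other sample. The difference of -0.76 ± 0.28 in IR-3W did not pass (limma adjusted p = 0.0932), nor did -0.22 ± 0.26 in IR-7W. Atp5pb, subunit b of the outer stalk, differed by -0.74 ± 0.24 in IR-3W and -0.59 ± 0.22 in IR-7W without passing (limma adjusted p = 0.0567 and 0.0778). Atp5if1, the inhibitor that stops the enzyme from running backwards, differed by -0.04 ± 0.26 in IR-3W and -0.12 ± 0.25 in IR-7W.

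**Figure D3:**
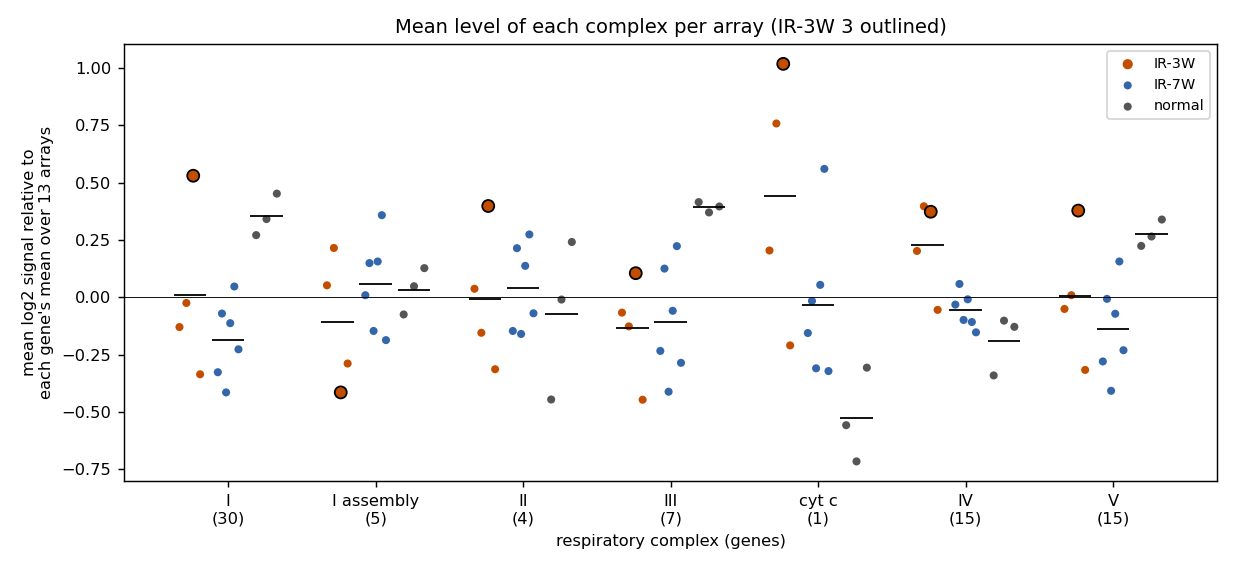
Mean level of the tested genes of each complex on each array, after each gene's mean over the 13 arrays was subtracted (log2), with the IR-3W group on the left of each complex, the IR-7W group in the middle and normal tissue on the right; short bars are group means. The outlined IR-3W 3 lies above every other sample for complex I (0.53) and complex V (0.38).

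Complexes were also read sample by sample. The mean level of the 30 complex I genes, after each gene's mean over all arrays was subtracted, was -0.13, -0.025, 0.53 and -0.34 in IR-3W carcinomas 1 to 4, -0.42 to 0.05 in IR-7W carcinomas and 0.27 to 0.45 in normal tissue. IR-3W 3 exceeded the normal samples and every other carcinoma lay below them. For complex III the range was -0.45 to 0.10 in IR-3W, -0.41 to 0.22 in IR-7W and 0.37 to 0.41 in normal tissue, so that all carcinomas lay below normal. For complex V it was -0.32 to 0.38 in IR-3W, -0.41 to 0.16 in IR-7W and 0.22 to 0.34 in normal tissue. In each of complexes I, II, III and V, IR-3W 3 was the highest and IR-3W 4 the lowest IR-3W carcinoma, and IR-7W 5 was the highest and IR-7W 3 the lowest IR-7W carcinoma. For complex IV, whose mean includes the dim probes of Cox7c and Cox8b, the range was -0.06 to 0.40 in IR-3W, -0.15 to 0.06 in IR-7W and -0.34 to -0.10 in normal tissue, so the IR-7W carcinomas overlapped the normal samples. Of its 15 members, 9 had an IR-7W difference below 0. Without IR-3W 3, 4 members rose and 15 fell in IR-3W, against 5 and 6 with it, and the median difference was -0.39. Its adipocyte marker level and its low array signal move with these results, and neither part was tested.

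The members are among the brightest genes on the array, and this bears on a comparison between arrays of unequal signal. When all genes were cut into 10 equal bands by mean signal, 57 of the 77 lay in the brightest band. In that band the median difference of all genes was -0.17 in IR-3W and -0.24 in IR-7W, against -0.23 and -0.42 for the members. The part of signal strength in the members' differences was not tested.

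**Figure D4:**
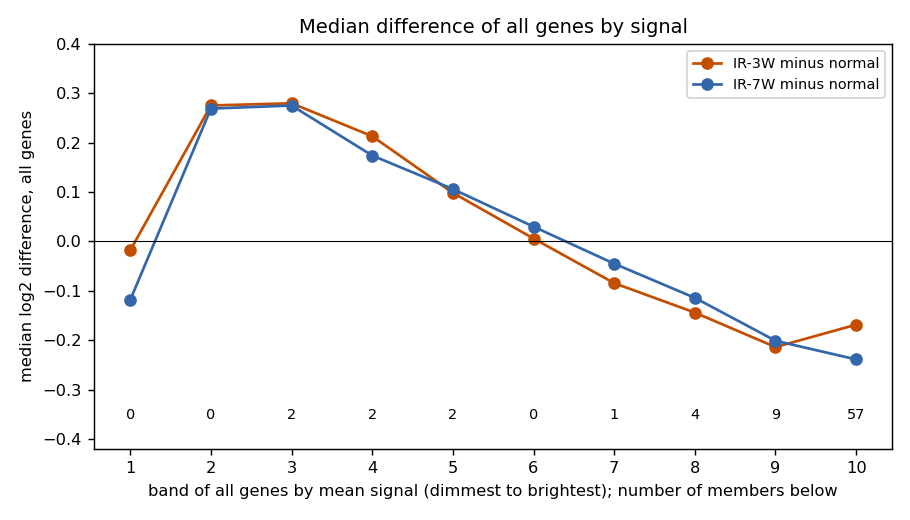
Median log2 difference of all genes between each carcinoma group and normal tissue, in 10 bands of mean signal from dimmest to brightest; the numbers near the base count the members in each band. The median is -0.17 (IR-3W) and -0.24 (IR-7W) in the brightest band, where 57 of the 77 members lie.

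The carcinoma groups were then compared with each other, which avoids the slide and scan of the normal samples. IR-3W 3 and 4 were on a slide without IR-7W samples, and IR-7W 2, 3, 4 and 6 on a slide without IR-3W samples. Slide and group are therefore largely mixed here too. The groups also differed in stroma: 8 fibroblast markers averaged 3.83 to 4.91 in IR-3W and 1.87 to 3.29 in IR-7W carcinomas. Of these 8, 4 passed as higher in IR-3W in limma and 0 as lower, against 0.588% and 0.15% of all genes. The part of fibroblasts in the members' differences was not tested. With 0.738% of all genes passing (0.588% higher in IR-3W and 0.15% lower), 0 of 77 members passed in IR-3W against IR-7W carcinomas in limma, and 9 had an unadjusted p under 0.05, against 12.4% of all genes. The median difference of the members was 0.20, and 0.02 without IR-3W 3. Under normexp it was -0.39 relative to the median of all genes, with 2 members higher and 3 lower in IR-3W past the threshold. The 95% interval lay within a 2-fold change either way for 59 members and reached past it for 18, so differences of that size are not bounded out for those. On the slide that held both groups (IR-3W 1 and 2, IR-7W 1 and 5) 0 of all genes passed, and the median of the members was 0.08. With so few arrays, hardly any gene could pass there.

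The smallest adjusted p was that of Ndufb2, with a difference of 0.77 ± 0.26 (95% interval 0.20 to 1.34, limma adjusted p = 0.232). Cox6b2 had the widest such difference, 1.37 ± 0.57 (interval 0.13 to 2.60, adjusted p = 0.349). Cox4i2 differed by 0.51 ± 0.22 (adjusted p = 0.363) and Uqcr11 by 0.42 ± 0.19 (adjusted p = 0.387). In the opposite direction, Atp5f1a differed by -0.54 ± 0.24 (limma adjusted p = 0.384), the assembly factor Ndufaf3 by -0.44 ± 0.19 (adjusted p = 0.383) and Uqcrfs1 by -0.43 ± 0.19 (adjusted p = 0.389). The carcinoma groups overlapped for all 77 members, where 1.57% of all genes were higher and 1.34% lower in IR-3W without overlap.

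**Figure D5:**
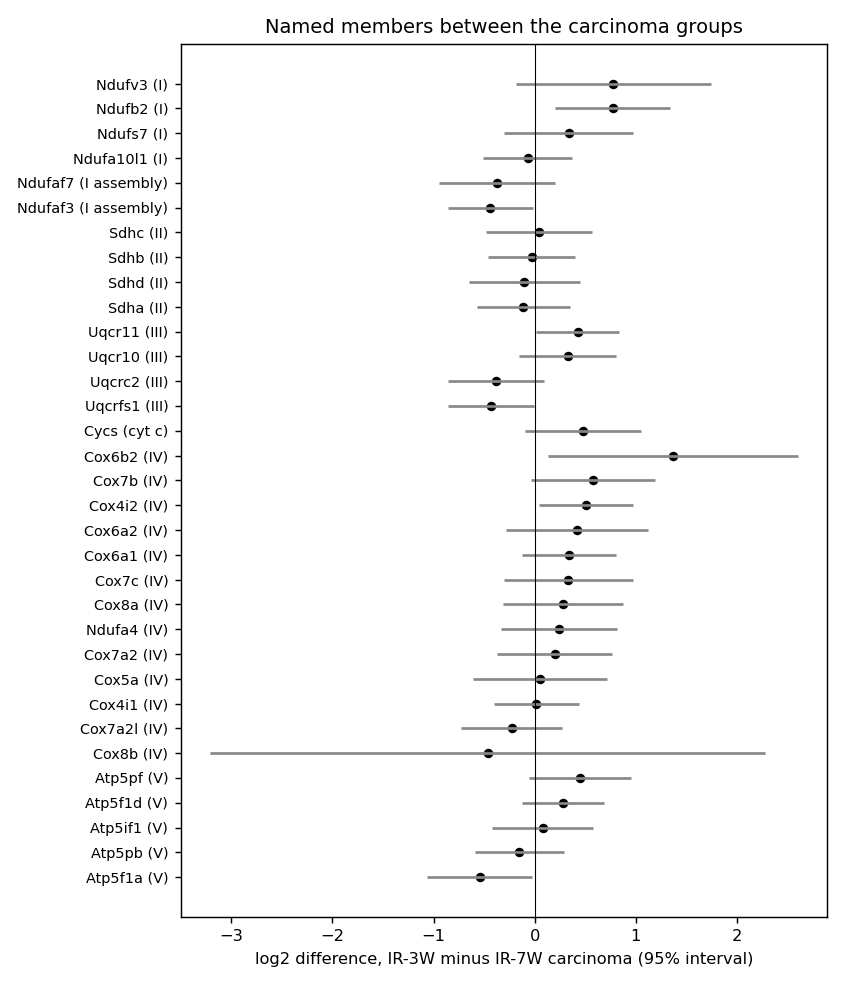
Log2 difference between IR-3W and IR-7W carcinomas for 33 named members, grouped by complex from I at the top to V at the base; points are differences and lines 95% intervals. None passed after adjustment, the smallest adjusted p being 0.232 for Ndufb2.

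Genes around the chain were read from lists of known roles. Over all genes, 9.25% were higher and 5.35% lower in IR-3W, and 12% higher and 8.85% lower in IR-7W. Genes named from each list were taken from those with the smallest p, besides Nrf1, Tfam, Esrra and Ppargc1b. Of 33 tested assembly factors of complexes I to V, which include the 5 among the members, 1 rose and 4 fell in each comparison, with medians of -0.46 in IR-3W and -0.31 in IR-7W. Coa8, a complex IV assembly factor, fell by 0.999 ± 0.20 in IR-3W and by 1.08 ± 0.19 in IR-7W, and Uqcc3, a complex III assembly factor, by 0.74 ± 0.21 and 0.90 ± 0.20. Cox16, which helps to build complex IV, rose by 1.08 ± 0.29 and 1.05 ± 0.27. Of 17 regulators of mitochondrial biogenesis, 2 rose and 0 fell in IR-3W and 1 rose and 0 fell in IR-7W. Pprc1, a coactivator related to PGC-1, rose by 1.40 ± 0.29 in IR-3W and 0.87 ± 0.27 in IR-7W, and Tfb1m, which modifies the mitochondrial ribosome's RNA, rose by 1.02 ± 0.27 in IR-3W. Other regulators did not pass in either: Nrf1 (-0.17 in IR-3W and 0.06 in IR-7W), Tfam (-0.40 and 0.03), Esrra (0.56 and 0.17) and Ppargc1b (-0.67 and -0.63). Of 28 genes of the mitochondrial ribosome and import, 2 rose and 2 fell in IR-3W, and 3 rose and 1 fell in IR-7W. The rises in both include Timm44, which was well above background on 0 normal arrays. Its probe passed the filter only through the carcinoma arrays, so its calls are no support for a rise.

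Pathways of fuel use were read in the same way, beside the same shares of all genes. Of 18 genes of fatty acid beta-oxidation, 0 rose and 12 fell in IR-3W and 0 rose and 9 fell in IR-7W, with medians of -1.10 and -0.76. Decr1, which handles unsaturated fatty acids, fell by 2.10 ± 0.32 in IR-3W and fell by 1.499 ± 0.30 in IR-7W, and Cpt2, which releases acyl-CoA inside mitochondria, by 1.47 ± 0.22 and 1.15 ± 0.20. The mean level of this list was 2.60 to 2.83 in IR-3W, 2.94 to 3.47 in IR-7W and 3.83 to 3.89 in normal tissue, with IR-3W 3 at 2.79 inside its group. Adipocyte markers fell with it: 11 of 13 in IR-3W and 13 of 13 in IR-7W, at medians of -3.29 and -4.55, and each of the 13 was well above background on at least 1 array of every group. The part of fat cells in the fall of beta-oxidation genes was not tested.

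Of 21 genes of the citric acid cycle and pyruvate dehydrogenase, 1 rose and 1 fell in each comparison. Pdha1, the catalytic subunit that feeds pyruvate into the cycle, rose by 3.02 ± 0.37 in IR-3W and 2.61 ± 0.34 in IR-7W, and Pdk2, a kinase that switches that enzyme off, fell by 1.81 ± 0.48 and 1.79 ± 0.44. Of 26 genes of hypoxia and glycolysis, 4 rose and 1 fell in IR-3W and 3 rose and 0 fell in IR-7W. Pfkm, a phosphofructokinase of glycolysis, rose by 1.37 ± 0.29 and 1.67 ± 0.26, while Ldhb, the lactate dehydrogenase subunit B, fell by 2.23 ± 0.60 in IR-3W. Slc25a3, the carrier that brings phosphate to complex V, rose by 1.26 ± 0.27 in IR-3W and 1.28 ± 0.25 in IR-7W, and the uncoupling protein Ucp3 fell by 5.53 ± 1.23 and 4.79 ± 1.14. Between the carcinoma groups, 0 genes of these mitochondrial lists passed in limma, against 0.738% of all genes. At an unadjusted limma p under 0.05 were 8 of 18 beta-oxidation genes, against 12.4% of all genes.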

How the data were processed

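Cy3-labelled RNA of each sample was hybridised to 1 rat array. Per the file headers, the authors' scanner output came from Agilent Feature Extraction 10.7.3.1, and the deposited intensity of each spot (gProcessedSignal) is background-subtracted. The authors also deposited a table of log2 values relative to the mean of the normal samples, per the labels; 99.4% to 99.6% of its values lie within 0.01 of the same quantity from the scanner files, up to a constant of -0.033 to 0.013 per array. It was used as an alternative, and 29.5% to 52.2% of its values are blank.

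From the intensities, control spots and outlier spots were left out, log2 was taken, and each array's 75th percentile was subtracted. Spots of a probe were averaged, probes well above background on at least 3 arrays were kept, and a gene was read from its brightest probe. Of 41012 probes, 16815 had a rat symbol through their accession. limma 3.58.1 in R 4.3.3 was fitted on all 13 arrays with group as the only term, with Benjamini-Hochberg adjustment over all genes. The step was tested on simulated data, with changes of 1 to 4 log2 units. Each size was added to 50 genes picked at random among 24876. Of changes of 1 log2 unit, 8% were recovered in IR-3W against normal, 10% in IR-7W against normal and 16% between carcinomas. At 2 log2 units it was 54%, 54% and 66%, so a gene that did not pass may still differ. In the data 14.6% (IR-3W) and 20.8% (IR-7W) of all genes passed against normal, far more than were changed here. The adjusted threshold was therefore less strict in the data, and these recoveries do not give the power of the comparisons with normal tissue. Arrays carry no read depth, so their number (4, 6 and 3) limits the precision.

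The members and the lists of neighbouring genes were chosen with earlier results of these data known. Named in full are, by complex and comparison, the passing members with the largest changes, the isoform pairs, complex II, Cycs and the smallest p-values between carcinomas. Alternatives covered background, scaling, filter, probes, groups fitted, array weights, slide, replicate numbers and each sample left out. The normexp alternative used the median signal of each spot. Same-numbered samples did not deviate together (r from -0.207 to 0.0793 over 10 pairs), so numbers were not taken as pairs. The values of 1 member are not reported here.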

Additional observations from a re-analysis of the deposited data

Results flagged for a closer look

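In 84 groups of 4 or 6 samples of the named members, complexes and all members, 3 had a sample far from the rest of its group; chance alone gives such a gap in about 1 in 20 groups. Atp5pf was at 6.12 in IR-3W 3, against 5.10 to 5.16 in the other IR-3W carcinomas. Cox5a was at 5.66 in IR-3W 3, against 4.47 to 4.59 in the others. Cox6a2 was at -0.0026 in IR-3W 4, against -1.51 to -1.31 in the others. IR-3W 3 also had the highest adipocyte marker level of the carcinomas, 0.49, and the part of this in the Atp5pf and Cox5a values was not tested.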

How the results depend on the processing

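Cyclic loess was chosen after seeing the data; the other alternatives were listed earlier. Of the counts and medians of members, 164 values under alternatives stayed within 1.5 times the main value or within the spread. Of the rest, 19 were weaker, 8 were stronger and 1 moved, the IR-7W median under normexp. Many of the 164 are counts of 0 between the carcinoma groups that stayed 0. They also include the median between carcinomas under normexp (-0.0082, against 0.20) and the IR-3W median with array weights (-0.46, against -0.23). In IR-3W against normal tissue (5 members higher, 6 lower), normexp background gave 3 higher and 3 lower, fitting the 2 groups alone 1 and 1, and array weights 31 lower. In IR-7W against normal tissue (3 higher, 16 lower), normexp gave 7 higher and 8 lower with a median of -0.10, and array weights 6 higher and 38 lower. Between the carcinoma groups (0 and 0), normexp gave 2 higher and 3 lower and array weights 1 higher. The replicate block, although the numbers do not pair the samples, gave 1 higher and 1 lower in IR-3W and 0 lower in IR-7W, and it left 1617, 2292 and 0 genes passing over all genes. Leaving out 1 sample gave 1 to 5 higher and 2 to 15 lower in IR-3W (median -0.39 to -0.10), 1 to 3 higher and 7 to 19 lower in IR-7W (median -0.48 to -0.35), and 0 to 0 between carcinomas (median 0.02 to 0.33). Of the called members, 3 of 11 in IR-3W and 7 of 19 in IR-7W kept their call with each sample left out, and 1 and 0 under every alternative. Among the runs with 1 sample left out, the highest count of falls in IR-3W, 15, came without IR-3W 3, and the lowest, 2, without normal 2. Among named results that passed, 1 reversed, Cox7c in IR-7W, -0.30 under normexp; some that did not pass changed sign too, such as Cox8b under normexp (-0.16 in IR-3W and -0.29 in IR-7W). Over all genes, 3699 passed in IR-3W (2343 higher), against 1170 (781 higher) under normexp, 11060 (2762) with no filter, 3752 (2731) with the 75th percentile of probes detected on all arrays, 1750 (1301) with the 2 groups alone and 9683 (4895) with array weights. In IR-7W 5274 passed (3031 higher), against 12858 (2065) under normexp, 13773 (3426) with no filter, 3742 of 5277 higher with that percentile, 3470 (1520) with a filter on all arrays and 10642 (5315) with array weights. Between carcinomas 187 passed (149 higher), against 7069 (6459) under normexp, 101 with that percentile, 107 with no filter, 22 with the 2 groups alone, 1680 (1071) with array weights, 336 with slide as a random block and 0 with slide as a fixed block or within the shared slide. Normexp moved the median of all genes to -0.23, -0.56 and 0.38 in the 3 comparisons, and the percentile over probes detected on all arrays to 0.10, 0.13 and -0.05; relative to these, the members' medians were 0.07, 0.46 and -0.39 under normexp and -0.22, -0.39 and 0.20 with that percentile. The cause of these shifts was not tested. Cox7c and Cox8b on the normal arrays are limited by background.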
